A study of Rattus norvegicus with 40 samples.

Results

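Cilium genes were followed through late gestation in the lung and intestine of Wistar rat embryos. The members were chosen by symbol: probe sets named for axonemal dyneins (Dnah, Dnai, Dnali), dynein assembly factors (Dnaaf), radial spokes (Rsph), tektins (Tekt) and cilia and flagella associated proteins (Cfap), for intraflagellar transport (Ift) and for Bardet-Biedl proteins (Bbs), with Foxj1, Rfx2, Rfx3 and Dynlrb2. Each probe set reads 1 transcript with several short oligonucleotide probes. This gave 72 of the 14217 genes measured: 45 axonemal genes, 24 Ift and Bbs genes and 3 transcription factors. Spag6, Hydin and Ccdc39 were also sought, but no probe set carried 1 of those symbols, and they were not analysed here. The groups were whole lung at gestational day 20 (E20), whole lung at day 16 (E16), whole intestine at E20 and whole intestine at E16, with 10 arrays in each. The labels name no treatment or allele. RNA was extracted with Trizol, and 2 µg was labelled for lung and 1 µg for intestine, so tissue and amount of RNA cannot be told apart. Tissue of several siblings was frozen, and the labels do not settle whether an array holds 1 embryo or a pool. The p-values therefore cover the spread between these arrays alone, part of which may be technical.

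A cilium is a hair-like projection of the cell surface built on an axoneme, a ring of microtubule doublets. Motile cilia, which in the lung beat on multiciliated cells of the airways, carry dynein arms and radial spokes along the doublets, and Foxj1 and the Rfx factors are known to switch on their genes. Primary cilia are single sensory cilia found on many cell types, among them embryonic mesenchyme, where Hedgehog signals pass through them. Both kinds are built by intraflagellar transport (IFT), which carries cargo along the axoneme, while the BBSome, a complex of Bbs proteins, moves membrane proteins out of the cilium.

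Array medians lay between 220 and 264 intensity units. They were 225 to 249 in E20 lung, 220 to 234 in E16 lung, 235 to 248 in E20 intestine and 241 to 264 in E16 intestine. The E16 lung arrays thus lay below both intestine groups without overlap, while the E20 lung arrays overlapped both. The offset was thus that of E16 lung, a group used in the comparison of lung ages and in that of tissues at E16. All levels below are log2 intensities, all differences are log2 differences, and 7.89 was the median of all log2 values. A gene was called at a limma adjusted p under 0.05 over all 14217 genes together with a change of at least 2-fold. Markers of other tissues set some arrays apart within their groups: the mean of 9 liver genes was 8.91 and 8.97 in lung E20 replicates 1 and 8, against 6.34 to 6.57 in the other 8 E20 lungs, and the mesothelium mean was 10.15 in lung E20 replicate 6, the highest of its group. Leaving out these 3 arrays and 4 intestine arrays with liver, pancreas or other markers left all 10 of the axonemal calls and all 7 of the Ift and Bbs calls described below in place.

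Axonemal genes were higher in lung at E20 than at E16. Of 45 axonemal genes 10 rose and 0 fell, which is 22.2%, beside 7.15% of all genes called higher, 4.63% called lower and 11.8% called in either direction. Their median difference was 0.36, beside -0.01 over all genes, and 36 of the 45 differences were above 0. Of 24 Ift and Bbs genes 0 rose and 1 fell, with a median of 0.04 that became -0.05 under quantile normalization. In whole organs, fewer cells of a type and less RNA per cell cannot be told apart.

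**Figure D1:**
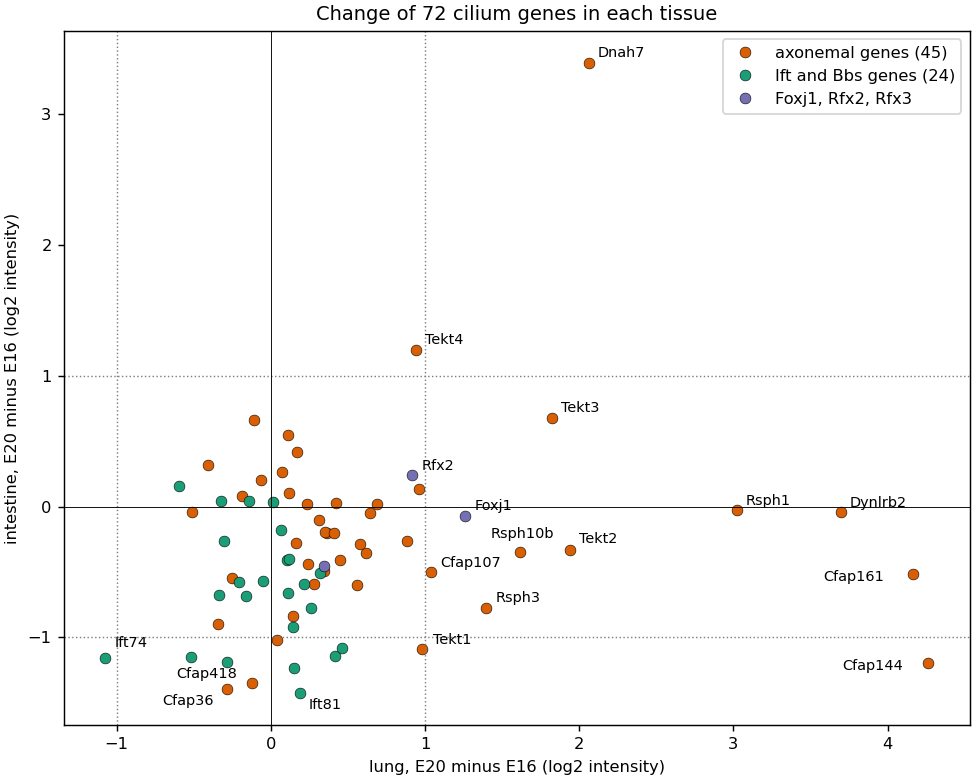
Each point is 1 of the 72 cilium genes, with the log2 difference between E20 and E16 in lung on the x axis and in intestine on the y axis; dotted lines mark a 2-fold change. Axonemal genes spread to the right as far as 4.26 in lung, most Ift and Bbs genes lie below 0 in intestine, and Dnah7 stands alone at the top with 3.39 in intestine.

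The largest rise in lung was that of Cfap144, a microtubule-associated protein of the axoneme. Its level was 10.58, 10.92 and 11.19 (lowest, median and highest array) in E20 lung, against 6.28, 6.58 and 7.37 in E16 lung. The groups did not overlap, and the difference was 4.26 (SE 0.10, limma adjusted p = 8.39e-32), or 19.2-fold. A second probe set of the gene gave 4.39. Cfap161, which lies inside the doublet microtubules, had 7.90, 8.34 and 8.65 in E20 lung, against 3.63, 4.06 and 5.21 in E16 lung. That difference was 4.17 (SE 0.16, limma adjusted p = 2.02e-24), again with no overlap. Cfap107, another protein of the doublet lumen, had 6.47, 6.69 and 6.96 in E20 lung, against 5.09, 5.65 and 6.03 in E16 lung. Its difference of 1.04 lay at the edge of the 2-fold limit: it was 0.98 and not called under quantile normalization, when arrays were centred on their medians, or without lung E16 replicate 8. The other 16 of 19 Cfap genes were not called, among them Cfap126 (0.96), Cfap100 (0.88) and Cfap300, a dynein arm assembly protein (0.04, the smallest). Cfap69 had probe sets that disagreed, with -0.51 in the brighter and 1.16 in the other.

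Radial spokes join the outer doublets to the central pair, and 3 of 5 measured Rsph genes rose in lung. Rsph1 had 7.56, 8.25 and 8.63 in E20 lung, against 4.48, 5.14 and 5.95 in E16 lung (difference 3.02, SE 0.16, limma adjusted p = 6.12e-20). The ranges were well apart, although at E16 the transcript lay below 7.89, where the size of an increase depends on the background. Rsph3 had 6.21, 6.72 and 6.91 in E20 lung, against 5.09, 5.25 and 5.56 in E16 lung, a difference of 1.40 (SE 0.09, limma adjusted p = 9.58e-18). Rsph10b had 7.68, 8.05 and 8.24 in E20 lung, against 6.28, 6.40 and 6.62 in E16 lung, a difference of 1.61 (SE 0.07, limma adjusted p = 3.43e-22). A second, dimmer probe set of Rsph10b differed by -0.05, and with the mean of both the gene was not called (0.78). Rsph9 (0.58) and Rsph6a (-0.41) were not called.

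Tektins are filament proteins of the doublet wall, and 2 of 7 rose in lung. Tekt2 had 8.96, 9.38 and 9.64 in E20 lung, against 7.12, 7.38 and 7.79 in E16 lung (difference 1.94, SE 0.09, limma adjusted p = 9.51e-22). Tekt3 had 7.70, 7.97 and 8.44 in E20 lung, against 5.83, 6.16 and 6.49 in E16 lung (difference 1.83, SE 0.13, limma adjusted p = 7.61e-16). Neither gene overlapped between ages. Tekt1 (0.98) and Tekt4 (0.94) also did not overlap between ages and lay just short of the 2-fold limit. Tekt1 passed it at 1.00 to 1.03 without lung E16 replicate 1 or 7 or without lung E20 replicate 2 or 6. Tektl1 showed the smallest difference (-0.06).

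Among dynein genes the calls in lung were few. Dynlrb2, a roadblock light chain of dynein, had 10.58, 11.16 and 11.29 in E20 lung, against 6.96, 7.39 and 7.87 in E16 lung. The difference was 3.70 (SE 0.08, limma adjusted p = 9.53e-33) with no overlap, whereas its close paralog Dynlrb1, a light chain of cytoplasmic dynein present in most cells, differed by 0.10 (SE 0.04, limma adjusted p = 0.0489). The difference between the paralogs was not tested. Of 4 heavy chains only Dnah7, of the inner arms, was called, with 6.54, 6.72 and 7.13 in E20 lung, against 4.30, 4.63 and 5.60 in E16 lung (difference 2.06, SE 0.19, limma adjusted p = 1.71e-12). Dnah1 (0.61), Dnah2 (0.41) and Dnah17 (0.12) were not called. Neither were the intermediate chain Dnai1 of the outer arm (0.17), Dnai7 (0.64) or Dnali1, an inner arm light chain (-0.11). The 6 assembly factors, which preassemble dynein arms in the cytoplasm, lay between -0.34 and 0.35, with Dnaaf1 highest and Dnaaf5 (-0.19) closest to 0.

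All 10 axonemal genes called in lung had an E16 mean below 7.89, and 7 of them had an E20 mean above it. Over these 10 genes, the median level per array was 7.83 to 8.54 in E20 lung and 5.84 to 6.13 in E16 lung. The same 10 genes were at 5.94 to 6.37 in E20 intestine and 6.12 to 6.58 in E16 intestine, so that their median in E20 lung lay above the other 3 groups. These ranges describe genes that were chosen for their lung difference, so the order of the lung groups was fixed by the choice. Not every gene was highest in E20 lung. Dnah7 had a mean of 8.41 in E20 intestine against 6.76 in E20 lung, and Tekt3 had 8.55 against 8.01, while the rest had higher means in E20 lung. Within E20 lung the 45 pairs of these genes correlated over the 10 arrays with a median r of 0.41, and 39 pairs were above 0. The median r of the same pairs was 0.28 in E16 lung, 0.14 in E20 intestine and 0.31 in E16 intestine. For the 276 pairs of Ift and Bbs genes it was 0.04 in E20 lung, 0.16 in E16 lung, 0.29 in E20 intestine and 0.16 in E16 intestine. The points share arrays and their normalization, and the values describe these arrays without a test. Lung E20 replicate 6 was lowest for Foxj1 (9.13) and Rsph1 (7.56) and highest for Cfap144 (11.19) and Tekt2 (9.64), so the genes did not move in step in that array.

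**Figure D2:**
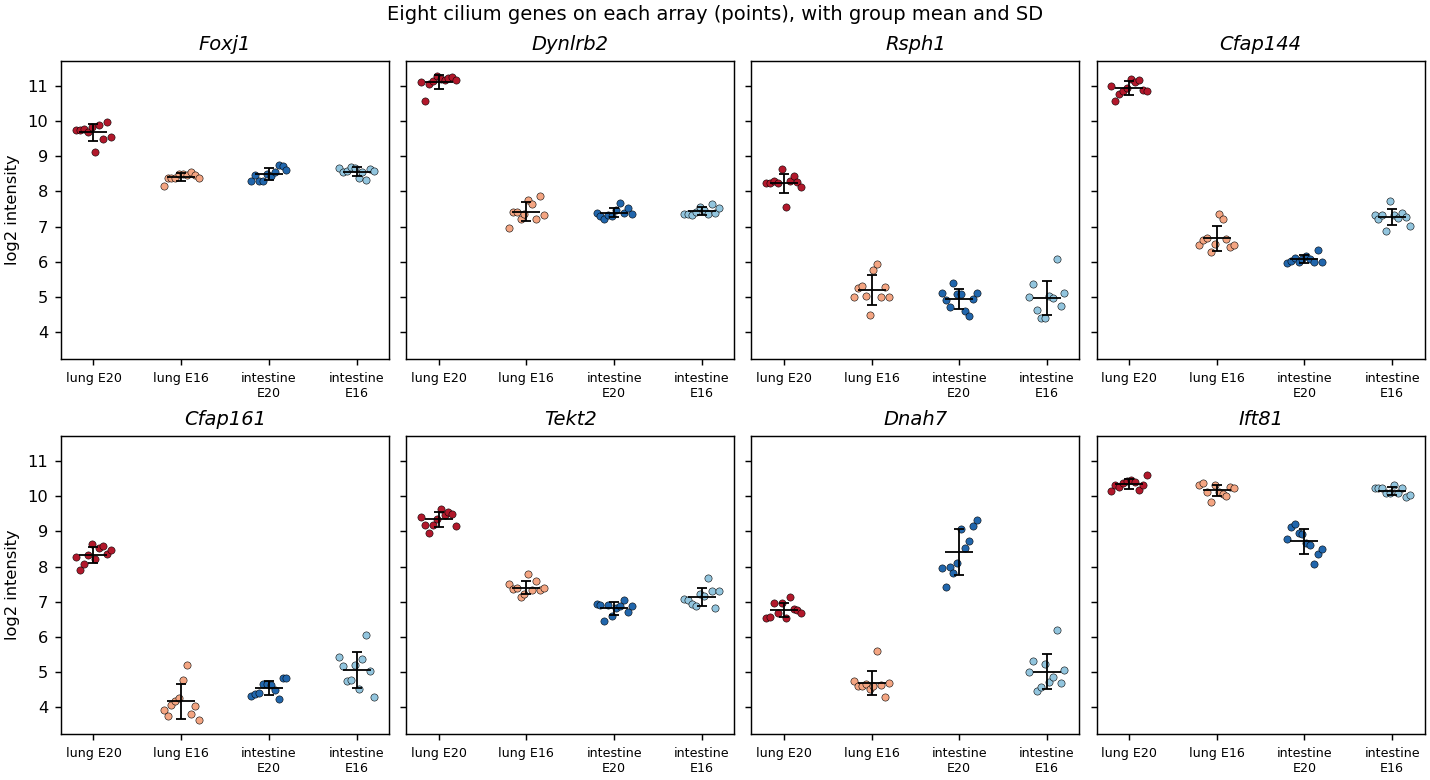
Log2 intensity of single cilium genes in each of the 40 arrays, with lung E20, lung E16, intestine E20 and intestine E16 from left to right; points are arrays and bars give the group mean and SD. Cfap144 reaches 10.58 to 11.19 in E20 lung and stays at or below 7.74 in the other 3 groups, Dnah7 is highest in E20 intestine, and Ift81 is lowest there.

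Of the transcription factors, Foxj1, which is known to drive the motile cilium programme, rose in lung. Its level was 9.13, 9.75 and 9.97 in E20 lung, against 8.15, 8.43 and 8.55 in E16 lung, with no overlap (difference 1.26, SE 0.08, limma adjusted p = 1.88e-18). In intestine it was 8.29, 8.47 and 8.76 at E20, against 8.33, 8.58 and 8.69 at E16, and the ages overlapped almost fully (difference -0.07, limma adjusted p = 0.409). Rfx2, which acts with Foxj1 in multiciliated cells, had 6.78, 7.34 and 7.80 in E20 lung, against 6.14, 6.46 and 6.64 in E16 lung. The ages did not overlap, but the difference of 0.92 (SE 0.09, limma adjusted p = 1.37e-12) was short of 2-fold; it was 1.03 and called without the 7 arrays named above. Rfx3, which acts on both motile and primary cilium genes, differed by 0.34 in lung and by -0.46 in intestine, and its dimmer probe set gave the opposite signs (-0.19 and 1.02).

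Because Rfx and forkhead factors are known to act on these genes, the stretch of 250 bases before to 50 bases after each gene's start was read from RefSeq promoters of the rat assembly GRCr8, for 61 of the 72 members and 27457 genes in all. The Rfx core GTTGCC, on either strand, was present in 12 of 39 axonemal promoters (30.8%) and in 7 of 20 Ift and Bbs promoters (35%), beside 12.2% of all promoters. Among the axonemal genes called in lung it was in 3 of 8 (37.5%), and among those not called in 9 of 31 (29%). The X-box, a pair of Rfx cores facing each other, was in 2 of 39 axonemal promoters (5.13%) and 0 of 20 Ift and Bbs promoters, beside 0.983% of all; an X-box can hold the core, so these counts overlap. The forkhead word TGTTTAC, on either strand, was in 3 of 39 axonemal promoters (7.69%) and 0 of 20 Ift and Bbs promoters, beside 3.77% of all. Base composition was not matched, no test was made, and a match does not show that a factor binds.

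Shown here, in the direction of transcription with Rfx cores and X-boxes in capitals, are 3 promoters of genes called in lung that hold cores, 1 axonemal promoter with X-boxes and 1 promoter of an IFT gene. They lie at chr10:44019232-44019531 (minus strand, Cfap144), chr1:147177772-147178071 (minus, Cfap161), chr5:143907675-143907974 (minus, Tekt2), chr11:43677333-43677632 (minus, Cfap298) and chr12:39618372-39618671 (plus, Ift81) of GRCr8. Cfap144 holds 3 cores, at 220, 70 and 21 bases before its start, and Cfap161 holds 1 at 57 bases before and 1 at 41 bases after the start. Tekt2 holds 1 at 29 bases before and 1 at 10 bases after the start. Cfap298, with X-boxes at 231 and 92 bases before its start, was not called in lung (0.11) or intestine (0.54). Ift81 holds cores 11 and 4 bases before its start.
Cfap144: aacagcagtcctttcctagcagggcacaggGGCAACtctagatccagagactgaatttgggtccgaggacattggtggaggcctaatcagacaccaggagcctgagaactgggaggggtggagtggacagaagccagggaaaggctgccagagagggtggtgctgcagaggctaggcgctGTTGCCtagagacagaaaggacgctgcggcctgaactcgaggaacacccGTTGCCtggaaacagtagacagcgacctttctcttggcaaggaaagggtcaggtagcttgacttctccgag
Cfap161: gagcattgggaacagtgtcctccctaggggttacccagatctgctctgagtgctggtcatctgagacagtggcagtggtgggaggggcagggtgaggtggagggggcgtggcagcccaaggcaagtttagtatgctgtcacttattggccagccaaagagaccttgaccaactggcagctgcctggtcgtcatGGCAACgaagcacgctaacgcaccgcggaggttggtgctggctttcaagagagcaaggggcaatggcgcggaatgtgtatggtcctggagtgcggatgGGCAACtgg
Tekt2: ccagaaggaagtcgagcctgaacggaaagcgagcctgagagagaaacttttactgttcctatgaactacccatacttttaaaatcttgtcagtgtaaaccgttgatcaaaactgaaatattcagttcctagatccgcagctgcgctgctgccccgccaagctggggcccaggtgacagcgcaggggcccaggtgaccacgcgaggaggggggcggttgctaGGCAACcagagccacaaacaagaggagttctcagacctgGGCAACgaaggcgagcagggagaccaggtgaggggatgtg
Cfap298: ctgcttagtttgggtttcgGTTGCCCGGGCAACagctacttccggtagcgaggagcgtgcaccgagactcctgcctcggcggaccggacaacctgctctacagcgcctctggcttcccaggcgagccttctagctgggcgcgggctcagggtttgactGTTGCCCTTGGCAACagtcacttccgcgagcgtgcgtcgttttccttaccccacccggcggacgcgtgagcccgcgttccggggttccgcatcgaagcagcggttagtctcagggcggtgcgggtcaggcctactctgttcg
Ift81: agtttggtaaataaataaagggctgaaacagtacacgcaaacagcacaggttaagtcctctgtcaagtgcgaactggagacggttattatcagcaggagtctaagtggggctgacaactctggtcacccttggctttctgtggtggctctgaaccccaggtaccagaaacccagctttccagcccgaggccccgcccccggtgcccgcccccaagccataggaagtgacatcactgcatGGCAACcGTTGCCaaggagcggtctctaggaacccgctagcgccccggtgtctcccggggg

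Genes of the motile cilium outside the chosen families were also higher in lung. Of 68 symbols listed, some of them older names of other listed genes or of members, 34 were measured. Of these, 13 rose and 0 fell in lung, beside 7.15% and 4.63% of all genes, with a median difference of 0.53. Ak7, an adenylate kinase of motile cilia, showed the largest rise, with 8.55 ± 0.18 in E20 lung against 4.10 ± 0.41 in E16 lung (SD, n = 10 arrays each; difference 4.44, SE 0.20, limma adjusted p = 1.04e-22). Next came Lrrc23 (3.16), Ropn1l (2.87), both radial spoke proteins, and Tppp3, a tubulin-binding protein of ciliated cells (2.80). Of 59 listed symbols of primary cilia and ciliary transport, again with some older names, 44 were measured. In lung 0 of these were called in either direction (median -0.11), beside 11.8% of all genes.

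Markers of several other airway and lung cells moved with age too. Of 8 measured club and airway secretory genes 5 rose in lung and 0 fell, and their mean per array was 8.96 to 9.71 in E20 lung, against 7.0 to 7.19 in E16 lung. Scgb1a1, the club cell secretoglobin, had 14.06, 14.45 and 14.53 in E20 lung. Of 7 airway basal genes 3 rose (8.0 to 8.61 in E20 lung, against 7.41 to 7.77 in E16 lung), and of 9 alveolar type II genes 8 rose (12.60 to 13.16, against 7.79 to 8.47). Of 7 pulmonary neuroendocrine genes 0 rose and 1 fell (6.99 to 7.23, against 7.02 to 7.38). Of 10 mitosis genes 6 fell (9.93 to 10.64, against 11.34 to 11.62), of 9 cartilage genes 3 fell (6.69 to 7.37, against 8.25 to 8.66), and of 7 erythroid genes 4 fell (9.38 to 10.62, against 11.93 to 12.52). No marker was at 0: the lowest of all intensities was 6.65 on the linear scale, before log2 was taken. The part of these shifts in the cilium results was not tested.

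The Ift and Bbs genes in lung had differences on both sides of 0. Their median per array was 9.03 to 9.33 in E20 lung, against 9.05 to 9.29 in E16 lung. By adjusted p alone, 7 of the 24 were higher and 8 lower, among them Ift27 (-0.52, limma adjusted p = 1.84e-11), which did not overlap between ages. By the same measure 9478 of all 14217 genes differed in either direction, so these counts do not set the members apart. The gene called lower was Ift74, which with Ift81 forms the tubulin-binding module of IFT-B, the complex that carries cargo towards the tip. It had 8.62, 9.07 and 9.90 in E20 lung, against 9.92, 10.31 and 10.43 in E16 lung, ranges that nearly met (difference -1.07, SE 0.11, limma adjusted p = 1.13e-11). Ift81 itself differed by 0.19 (SE 0.09, limma adjusted p = 0.0783). Ift22 showed the smallest difference (0.01), and the Bbs genes ran from Bbs12, a chaperonin-like protein needed to assemble the BBSome (-0.60), to 0.21, with Bbs9 at 0.11.

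**Figure D3:**
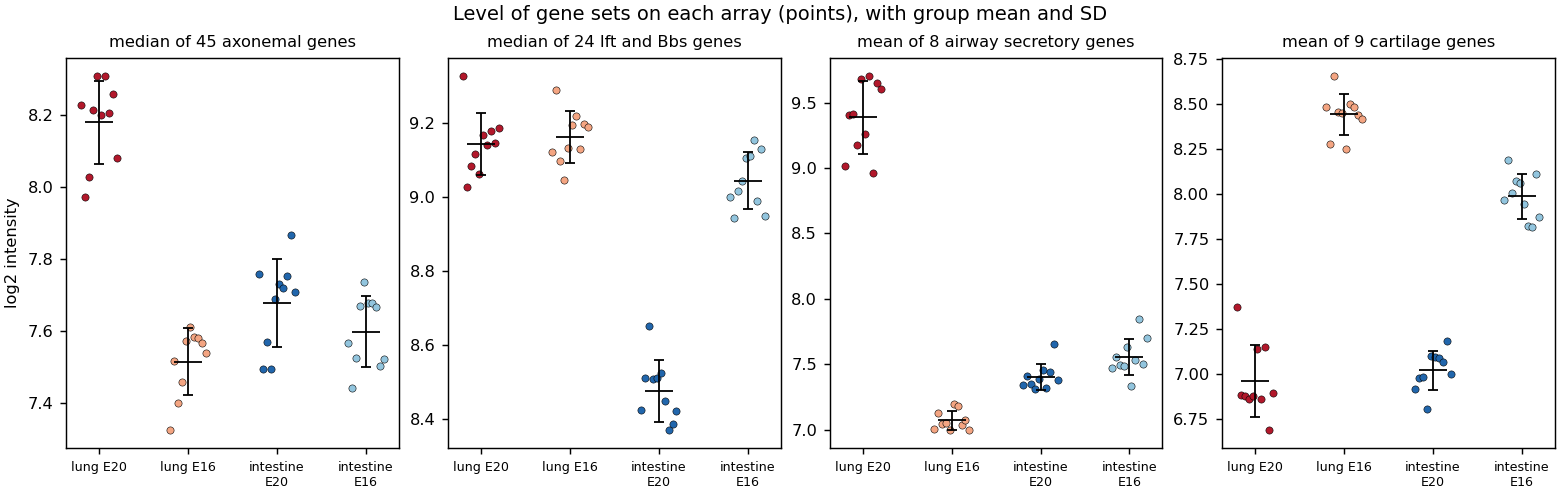
Log2 intensity per array (median of the 45 axonemal genes, median of the 24 Ift and Bbs genes, mean of 8 airway secretory genes and mean of 9 cartilage genes), with lung E20, lung E16, intestine E20 and intestine E16 from left to right; each point is 1 array, bars give the group mean and SD, and the y axes differ between panels. The axonemal medians are highest in E20 lung (7.97 to 8.31) and the Ift and Bbs medians lowest in E20 intestine (8.37 to 8.65).

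In intestine the pattern was different: Ift and Bbs genes were lower at E20 than at E16, and axonemal genes were called about as often as all genes. Of 24 Ift and Bbs genes 7 fell and 0 rose, which is 29.2% lower beside 6.26% of all genes called lower, 8.79% called higher and 15.1% called in either direction. Their median difference was -0.63, beside -0.09 over all genes, and 20 of 24 were below 0. In a test against a 2-fold change 2 of the 7 held, and with the mean of all probe sets of a gene 5 of the 7 held. The median level per array of the set was 8.37 to 8.65 in E20 intestine, against 8.94 to 9.16 in E16 intestine, with no overlap. Of 45 axonemal genes 2 rose and 5 fell (median -0.20), shares of 4.44% and 11.1%, beside 8.79% and 6.26% of all genes. The other 38 were not called, so the share called in either direction was near the 15.1% of all genes. Array medians of the axonemal genes overlapped between ages (7.49 to 7.87 at E20, against 7.44 to 7.74 at E16).

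The called IFT falls were all in IFT-B, with 5 of 14 members, against 0 of 3 in IFT-A. IFT-A is the complex for the return from the tip, and the difference between these shares was not tested. The contrast rests on the 2-fold limit. The 3 IFT-A genes, Ift122 (-0.568), Ift140 (-0.505) and Ift43 (-0.411), were also lower in E20 intestine, with no overlap between ages. Ift81 had 8.07, 8.73 and 9.21 in E20 intestine, against 9.98, 10.15 and 10.32 in E16 intestine. The ranges were apart (difference -1.43, SE 0.09, limma adjusted p = 2.81e-17), and its other probe sets gave -1.47 and -0.95. Its partner Ift74 had 8.74, 8.89 and 9.25 at E20, against 9.61, 10.16 and 10.39 at E16 (-1.16, SE 0.11, limma adjusted p = 1.08e-12). Ift25 and Ift27 form a pair that links the train to the BBSome and to export of Hedgehog components. Ift27 had 9.48, 9.58 and 9.77 in E20 intestine, against 10.56, 10.73 and 10.96 in E16 intestine (-1.15, SE 0.05, limma adjusted p = 1.80e-22). Ift25 had 7.99, 8.23 and 8.39 in E20 intestine, against 9.09, 9.38 and 9.53 in E16 intestine (-1.14, SE 0.07, limma adjusted p = 1.30e-17). A second probe set of Ift25 gave -1.25, but with the mean of all its probe sets, one of them far dimmer, Ift25 was not called (-0.79). Ift70b differed by -1.08 (limma adjusted p = 2.22e-13), although it has a close paralog that its probes could share.

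Of the 6 measured BBSome subunits, 2 were called lower in E20 intestine. Bbs5 had 7.12, 7.56 and 7.99 at E20, against 8.41, 8.82 and 9.09 at E16 (-1.23, SE 0.11, limma adjusted p = 6.33e-13). Bbs1 had 6.91, 7.33 and 7.95 at E20, against 8.18, 8.55 and 8.87 at E16 (-1.19, SE 0.14, limma adjusted p = 2.67e-10), but with the mean of its probe sets the difference was -0.80 and not called. Neither overlapped between ages. Bbs2 (-0.92) and Bbs9 (-0.66) were below 0 with no overlap, though short of 2-fold. So were Bbs4 (-0.58) and Bbs7 (-0.59), whose second probe sets gave 0.11 and -0.13. The other listed genes of primary cilia were also lower in E20 intestine, with 9 of 44 called lower, 0 higher and a median of -0.49. Of all genes, 6.26% were called lower and 8.79% higher. The largest of these falls, chosen after their values were seen, were in Iqcb1, a transition zone protein (-1.69), the small GTPases Arl6, which recruits the BBSome (-1.65), and Arl3, which releases lipidated cargo into the cilium (-1.53), and Rab23, a regulator of Hedgehog signalling (-1.43).

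Among axonemal genes the 5 falls in intestine were in Cfap36 (-1.39), Cfap418 (-1.35), Cfap144 (-1.20), Tekt1 (-1.09) and Cfap300 (-1.02). Cfap36, known to bind Arl3, had 8.52, 8.92 and 9.0 at E20, against 10.03, 10.20 and 10.48 at E16 (SE 0.08, limma adjusted p = 1.89e-18). Cfap418, known in human for retinal degeneration, had 8.59, 8.89 and 9.32 at E20, against 10.12, 10.27 and 10.32 at E16 (SE 0.07, limma adjusted p = 1.85e-21). Both therefore carry a Cfap name while their known roles lie outside the motile axoneme. Cfap144 had 5.96, 6.05 and 6.34 at E20, against 6.87, 7.30 and 7.74 at E16, with no overlap. Tekt1 had 6.28, 6.46 and 6.78 at E20, against 7.33, 7.52 and 7.80 at E16. Cfap300 sat at the 2-fold limit, and was not called without intestine E16 replicate 1, 5 or 9, without intestine E20 replicate 8 or with weighted arrays (-0.98).

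Dnah7 and Tekt4 rose in intestine. Dnah7 had 7.41, 8.32 and 9.34 in E20 intestine, against 4.47, 4.94 and 6.20 in E16 intestine (difference 3.39, SE 0.19, limma adjusted p = 2.55e-19). The groups did not overlap, and the 10.5-fold change rests on 1 probe set. It was the sole axonemal gene whose change was called smaller in lung than in intestine, by -1.33 (SE 0.27, limma adjusted p = 4.63e-05). Tekt4 had 7.44, 7.89 and 8.15 in E20 intestine, against 6.32, 6.59 and 7.08 in E16 intestine (1.20, SE 0.09, limma adjusted p = 8.24e-15). Of the 34 other motile cilium genes measured, 3 rose in intestine: Myb, a regulator of multiciliated cells that also acts in proliferating cells (2.16), Ak7 (1.63) and Nme7 (1.23). Mns1, an axonemal inner protein, fell (-1.10). Of all genes, 8.79% were called higher in intestine and 6.26% lower, so the count of rises in this list was near the share of all genes.

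Markers of other cells also differed between intestine ages. Of 7 erythroid genes 7 fell, with a mean per array of 8.05 to 9.16 at E20, against 12.27 to 13.33 at E16. Of 8 enteric neuron and glia genes 5 fell (8.52 to 9.33 at E20, against 9.73 to 10.11 at E16), and of 7 mesothelium genes 4 fell and 2 rose (8.60 to 9.56, against 9.89 to 10.39). Of 9 cartilage genes 4 fell (6.81 to 7.19, against 7.81 to 8.19). Their part in the Ift and Bbs result was not tested. The mean of 8 pancreas genes was 8.39, 8.46 and 8.57 in intestine E16 replicates 6, 8 and 9, against 6.35 to 7.0 in the other 7. Of these, replicate 8 was highest of its group in Dnah7 (6.20), Rsph1 (6.08) and Cfap161 (6.05), and replicate 9 was not.

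The change with age was then compared between tissues directly, as the lung change minus the intestine change. Of 45 axonemal genes 15 had a called positive difference and 1 a negative one, beside 9.13%, 8.48% and 17.6% of all genes called positive, negative or either. The median was 0.69, beside 0.03 over all genes. The largest were Cfap144 (5.46, SE 0.15, limma adjusted p = 4.29e-30), Cfap161 (4.68), Dynlrb2 (3.74) and Rsph1 (3.05). Cfap144 was called higher at E20 in lung and lower at E20 in intestine. For Tekt1 (2.07, limma adjusted p = 3.20e-18) the fall in intestine was called and the lung difference was not. Without the 7 arrays, the difference for Cfap36 was 0.96 and not called. Of 24 Ift and Bbs genes 6 had a positive difference and 0 a negative one (median 0.52): Ift81 (1.61, limma adjusted p = 5.36e-14), Ift25 (1.56), Ift70b (1.54), Bbs5 (1.38), Bbs2 (1.06) and Ift46 (1.03). Of these, Ift25 was not called with the mean of its probe sets (0.92), Ift46 was not called when arrays were centred (0.9975), and Bbs2 was not called without the 7 arrays with markers of other tissues (0.97) or without intestine E20 replicate 9 (0.99). Cfap36, Cfap418, Cfap300 and Tekt1 were among the 15 axonemal genes although their change was called in intestine alone, as were Ift81, Ift25, Ift70b and Bbs5 among the Ift and Bbs genes. Cfap100 and Cfap299, and Bbs2 and Ift46, had a called difference although their change was called in neither tissue. For Ift74 the change was alike in size in both tissues, and the difference was 0.09 (SE 0.15, limma adjusted p = 0.636).

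**Figure D4:**
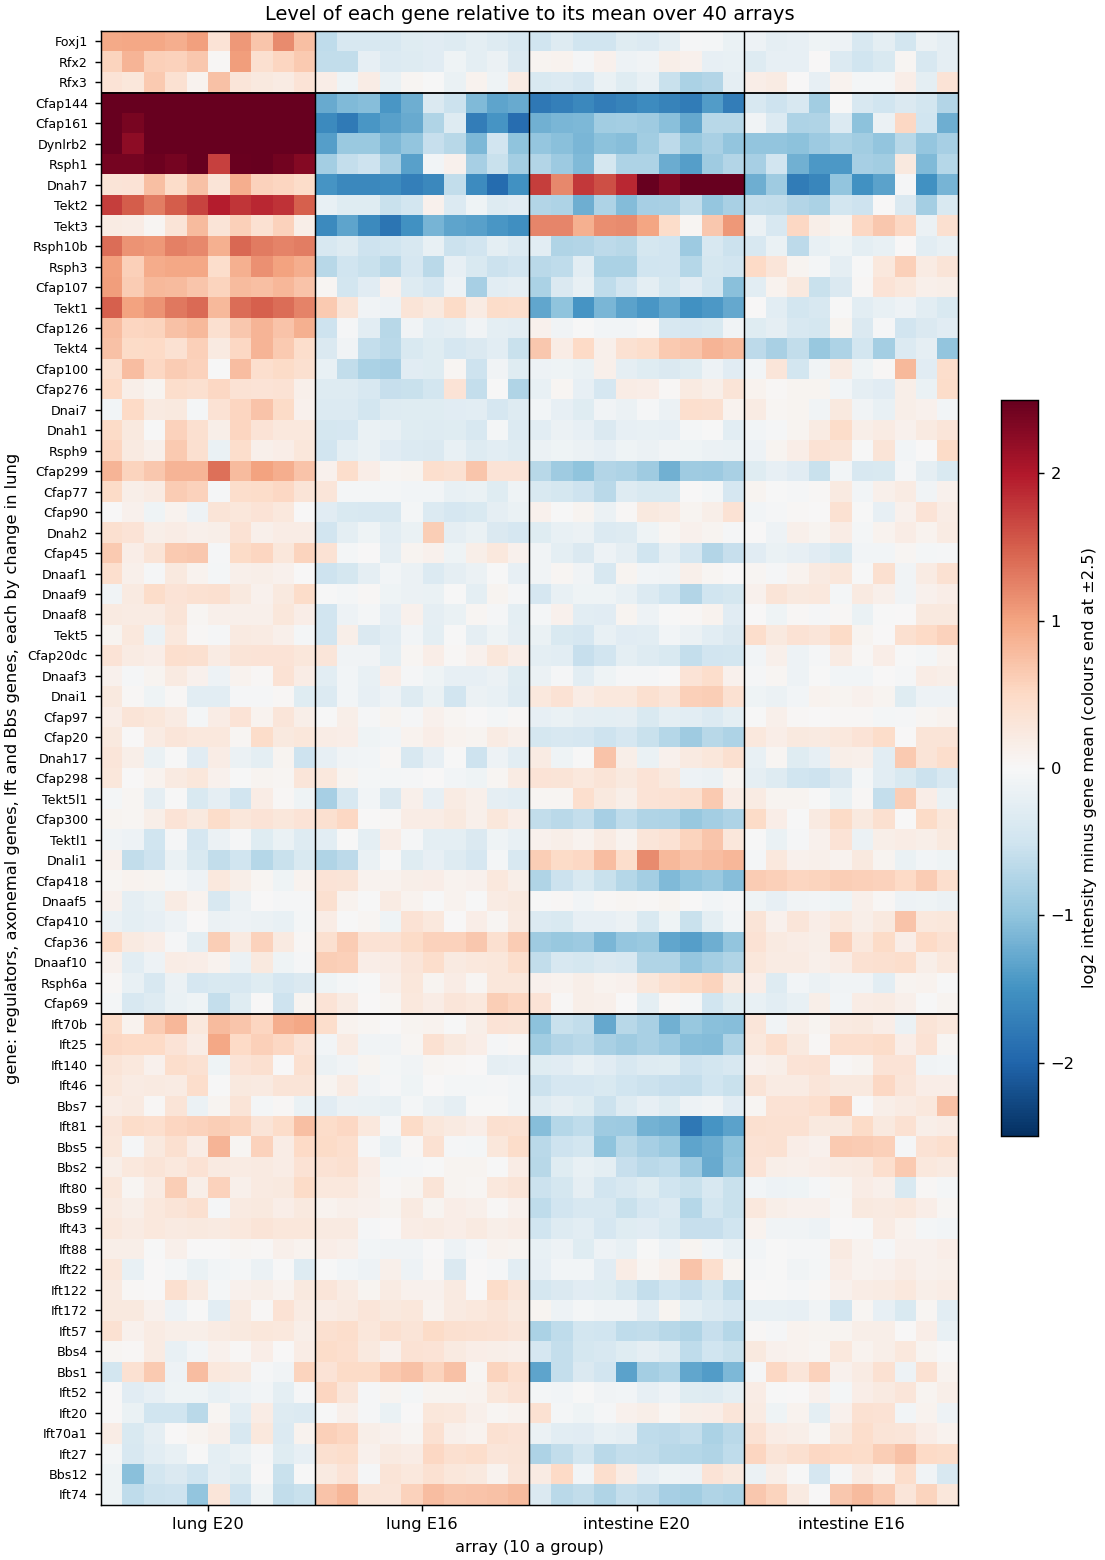
Each row is 1 of the 72 members, grouped as transcription factors, axonemal genes and Ift and Bbs genes and ordered by their lung change, and each column 1 of the 40 arrays, ordered lung E20, lung E16, intestine E20 and intestine E16; colour gives log2 intensity minus the gene's mean over all arrays and is clipped at both ends of the scale. The block of axonemal genes with large lung changes, such as Cfap144 (4.26), is high in the E20 lung columns, and the Ift and Bbs genes, such as Ift81 (-1.43 in intestine), are low in the E20 intestine columns.

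At E16 few cilium genes differed between organs by 2-fold or more. Of 45 axonemal genes 0 were higher and 1 was lower in lung than in intestine, beside 2.13%, 3% and 5.13% of all genes called higher, lower or either. The lower gene was Tekt3, with 5.83, 6.16 and 6.49 in E16 lung against 7.26, 7.93 and 8.32 in E16 intestine (-1.68, limma adjusted p = 3e-14). By adjusted p alone, 9 axonemal genes were higher and 23 lower in lung, while 9109 of all 14217 genes differed in either direction. Of 24 Ift and Bbs genes 0 were called, and by adjusted p alone 6 were higher and 5 lower. The axonemal median was -0.17, beside -0.11 over all genes, and under quantile normalization it was 0.01, beside -0.002 over all genes. No direction for the set holds at this age. Without lung E16 replicate 7, Cfap161 was also called lower in lung (-1.01), which makes 2 axonemal genes.

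At E20 both sets were higher in lung. Of 45 axonemal genes 12 were higher and 2 lower than in intestine, beside 7.91%, 8.21% and 16.1% of all genes, with a median of 0.45 against -0.09 over all genes. The largest were those of Cfap144 (4.86, SE 0.10, limma adjusted p = 1.66e-34), Cfap161 (3.79), Dynlrb2 (3.72), Rsph1 (3.29), Tekt1 (2.60), Tekt2 (2.53) and Rsph10b (1.81, or 0.64 and not called with the mean of its probe sets). The lower genes were Dnah7 (-1.65, SE 0.19, limma adjusted p = 5.68e-10) and Dnali1 (-1.14, or -0.58 and not called with the mean of its probe sets). Of 24 Ift and Bbs genes 5 were higher and 0 lower, with a median of 0.60: Ift81 (1.62), Ift70b (1.54), Ift25 (1.36), Bbs5 (1.19) and Bbs1 (1.17). With the mean of all probe sets of a gene, Ift25 (0.53) and Bbs1 (0.86) were not called. Foxj1 was higher by 1.19. These comparisons share arrays with those of age, so they are not separate evidence.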

How the data were processed

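Whole lung and whole intestine were measured on 40 arrays, 10 in each group of tissue and age named by the labels. The deposited values were normalized intensities on a linear scale for 31099 probe sets, made with RMA per the submitters' processing notes, which give no version; log2 was taken here before any test, as no deposited log2 values were used. The sources used here do not say whether the tissues were normalized jointly. Probe sets with 1 symbol in the platform annotation (20826) were kept, 436 with several and 9837 with none were left out, and the brightest per gene stood for the gene, which gave 14217 genes. All 72 members kept their symbol in a RefSeq gene table. With limma 3.58.1 in R 4.3.3, 4 group means were fitted to the 40 arrays without covariates, and 5 contrasts were taken, two-sided, with Benjamini-Hochberg adjustment over all genes; a call needed an adjusted p under 0.05 and at least 2-fold. Standard errors (SE) come from that fit. The steps were tested on simulated data. The number of arrays limits the precision.

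Named genes were the regulators and Dynlrb2, every called member, the largest and smallest lung change in each role, up to 4 called genes of each pathway list and Dynlrb1. Others are said to be chosen after seeing values or lie near the 2-fold limit. Some members, such as Rsph9, Dnah1, Dnah2, Cfap69 and Cfap298, were named outside these rules with their values known. Members and lists were chosen with earlier results of these data known, so they are not independent evidence. Promoters were the most upstream RefSeq window of a gene. Alternatives covered the normalization, probe set choice, dim genes, fold limit, array weights, array omission and a replicate block.

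Replicate numbers recur in the groups. Same-numbered arrays correlated, as deviations from group means, at -0.05 to 0.70 for lung and intestine at E16 and at -0.14 to 0.40 at E20. The lung array's best match in intestine was its own number in 5 of 10 cases at E16 and 2 of 10 at E20. For lung E20 and E16, which cannot share an embryo, the range was -0.25 to 0.35. The labels do not settle whether equal numbers mark 1 embryo or litter. The samples were treated as unpaired, and a pairing of the tissues, above all at E16, may have been ignored.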

Additional observations from a re-analysis of the deposited data

Results flagged for a closer look

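Of 164 sets of 10 arrays examined, in which a set is 1 named gene in 1 group, 13 had an array far from the other 9 by Dixon's test; chance alone gives about 1 in 20. In lung E20, replicate 6 was low for Cfap100 (5.44) and Rsph1 (7.56) and high for Cfap299 (8.47) and Ift25 (10.03), and replicate 2 was low for Dynlrb2 (10.58). In lung E16, replicate 7 was high for Dnah7 (5.60) and replicate 1 low for Foxj1 (8.15). In intestine E20, replicate 4 was high for Cfap100 (5.57) and low for Dnaaf1 (7.43), replicate 6 was high for Dnali1 (10.01) and replicate 1 high for Ift74 (9.25). In intestine E16, replicate 8 was high for Dnah7 (6.20) and replicate 7 for Ift46 (9.96).

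For 23 members the change with age differed between tissues in limma's test of that difference, as the lung change minus the intestine change. Dnah7 alone was negative (-1.33). Among Cfap genes the differences were 5.46 for Cfap144, 4.68 for Cfap161, 1.54 for Cfap107, 1.23 for Cfap418, 1.15 for Cfap100, 1.15 for Cfap299, 1.11 for Cfap36 and 1.06 for Cfap300. Among radial spoke genes they were 3.05 for Rsph1, 2.17 for Rsph3 and 1.96 for Rsph10b. The tektins gave 2.27 for Tekt2, 2.07 for Tekt1 and 1.15 for Tekt3, and Dynlrb2 and Foxj1 gave 3.74 and 1.33. Among Ift and Bbs genes they were 1.61 for Ift81, 1.56 for Ift25, 1.54 for Ift70b, 1.38 for Bbs5, 1.06 for Bbs2 and 1.03 for Ift46. Without the 7 arrays with markers of other tissues, the differences for Bbs2 (0.97) and Cfap36 (0.96) were not called. Bbs2 was also not called without intestine E20 replicate 9 (0.99), and Ift46 when arrays were centred on their medians (0.9975). With the mean of all probe sets of a gene, Ift25 (0.92) and Rsph10b (0.88) were not called.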

How the results depend on the processing

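Of 70 gene calls, 38 held under every alternative in which they were fitted, other than omission of 1 array. Under every omission of 1 array 66 held, and no value changed direction with a call. A call also counted as held in a setting that gave no fit for it, such as the filter that removes dim genes. With no fold limit the axonemal counts (higher and lower) were 32 and 6 in lung, 9 and 25 in intestine and 34 and 8 for the difference between tissues. They were 9 and 23 for lung over intestine at E16, and 30 and 8 at E20. The Ift and Bbs counts were 7 and 8 in lung, 20 lower in intestine and 18 and 2 for the difference. For lung over intestine they were 6 and 5 at E16, and 20 and 2 at E20. Most of all 14217 genes also passed without the fold limit, in either direction: 9478 in lung, 10159 in intestine and 9411 for the difference. For lung over intestine 9109 passed at E16 and 10397 at E20. In a test against a 2-fold change, axonemal counts were 1 and 2 in intestine, 9 and 0 for the difference and 1 lower at E20, and Ift and Bbs counts were 0 lower in lung, 2 lower in intestine and 3 higher both for the difference and at E20. Keeping only genes with a mean above 7.89 left 18 of the 45 axonemal genes: 1 rose in lung (median 0.13), 0 rose and 3 fell in intestine (median -0.32), 4 and 0 differed between tissues, 0 were lower at E16 (median -0.0392), and 3 were higher and 1 lower at E20 (median 0.57); the Ift and Bbs median for the difference was 0.63. That filter removes dim genes by construction. For it, the test against a 2-fold change and the mean of all probe sets, the shares of all genes are not given here. With the mean of all probe sets, 1 axonemal gene was lower and 3 Ift and Bbs genes higher in lung at E20. Under quantile normalization the medians were 0.0148 for axonemal genes at E16 and -0.0528 for Ift and Bbs genes in lung; the cause was not tested. Omitting 1 array gave 9 to 11 axonemal rises in lung and 1 to 2 axonemal genes lower in lung at E16, the 2 without lung E16 replicate 7. With the replicate block the axonemal counts were again 10 higher in lung and 2 and 5 in intestine, and 7 Ift and Bbs genes were lower in intestine. For these age comparisons the block joined equal numbers at E16 and E20, which cannot share an embryo. It therefore cannot show whether a pairing of the tissues was ignored. Numbers were each array's own closest match in 1 of 10 to 5 of 10 pairs. Signal over background limits the size of changes in dim genes.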
